A study of Rattus norvegicus with 6 samples.

Results

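The genes described here are known from the epithelium of the choroid plexus and were followed in the rat amygdala after saline or ethanol. They were Ttr, Sostdc1, Igf2, Enpp2 and Kl, whose products leave or are shed from the cell, the tight junction gene Cldn2, the receptor genes Folr1 and Prlr, the membrane protein gene Tmem72 and the transcription factor gene Otx2. Of these, Igf2, Enpp2 and Prlr are also made by other cells. The 10 genes are 10 of 38445 in the count files. They were found by symbol and chosen by their ethanol against saline values in these same libraries, so those values are given below as a description with no test. Of the 10 genes, 9 passed the filter on low counts and were fitted; Otx2 did not pass.

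RNA was sequenced from the amygdala of adult male wild-type Sprague Dawley rats, injected intraperitoneally with saline (Control) or with ethanol at 1 g/kg (Ethanol) and killed 1 h later. Each group had 6 rats, and RNA of 2 rats was pooled into each library, which left 3 libraries per group. A pooled library hides the difference between its 2 rats. The libraries of a group are told apart by a number alone, and same-numbered Control and Ethanol libraries hold different rats.

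The choroid plexus is a folded sheet of ciliated epithelium over leaky capillaries in the brain ventricles. Its cells secrete cerebrospinal fluid, release carrier and growth factor proteins into it, and are joined by tight junctions that form the barrier between blood and fluid. It is not part of the amygdala, which lies beside the temporal horn of the lateral ventricle. In bulk tissue, fewer cells of a type and less RNA per cell cannot be told apart.

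The promoters are shown because most of these genes had a shared pattern over the libraries, and OTX2, the product of one of them, is a homeodomain factor of choroid plexus development that recognises TAATCC. Promoter windows from RefSeq on the GRCr8 assembly matched 5 of the 10 genes (Ttr, Igf2, Kl, Prlr and Tmem72), with 7 windows in all, Igf2 and Prlr having more than 1 start. No window was matched for Sostdc1, Enpp2, Cldn2, Folr1 and Otx2. The 250 bases before the start are printed 5′ to 3′ for Ttr, Kl and Tmem72, 3 genes of the shared pattern, with capitals marking TAATC, the first letters of the OTX2 core, or its reverse complement GATTA. The Ttr window is chr18:12218508-12218757 on the plus strand, that of Kl is chr12:5325753-5326002 on the plus strand, and that of Tmem72 is chr4:151645990-151646239 on the minus strand.
Ttr: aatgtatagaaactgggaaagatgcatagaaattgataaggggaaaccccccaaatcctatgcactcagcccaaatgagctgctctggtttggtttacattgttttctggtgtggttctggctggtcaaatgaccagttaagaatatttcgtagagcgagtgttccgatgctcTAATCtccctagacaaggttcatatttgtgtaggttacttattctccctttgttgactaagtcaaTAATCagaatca
Kl: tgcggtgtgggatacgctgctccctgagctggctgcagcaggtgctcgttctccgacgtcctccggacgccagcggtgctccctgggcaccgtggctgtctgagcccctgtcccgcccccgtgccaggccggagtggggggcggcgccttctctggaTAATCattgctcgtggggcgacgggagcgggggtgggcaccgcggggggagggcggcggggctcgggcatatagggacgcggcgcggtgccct
Tmem72: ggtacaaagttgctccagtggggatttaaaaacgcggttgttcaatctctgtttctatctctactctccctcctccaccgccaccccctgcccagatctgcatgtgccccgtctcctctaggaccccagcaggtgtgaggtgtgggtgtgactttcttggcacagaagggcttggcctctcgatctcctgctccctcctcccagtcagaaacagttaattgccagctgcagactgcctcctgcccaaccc

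TAATC lay 77 and 12 bases before the Ttr start and 93 bases before the Kl start. The other 5 windows held neither orientation of it. Over all 33469 windows, 20.5% held TAATC or GATTA in these 250 bases. The full core TAATCC or its complement GGATTA, which contains the shorter core, was in 0 of the 7 windows and in 6.34% of all windows. The 3 printed windows differed in base composition, with 40.4% G or C for Ttr, 73.2% for Kl and 56.4% for Tmem72. A match of letters is a description of the window and does not show binding.

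Assigned reads per library lay between 62576504 and 70755739, and 3 counts correspond to 0.0422 to 0.0473 CPM, which is a count over the library total in megareads, scaled by the trimmed mean of M values (TMM). Neuronal markers fixed as a check of the dissected tissue were present in all 6 libraries, with summed levels of 3149 to 4074 CPM and Snap25 at 1590 to 2140 CPM. Across 18141 genes tested by edgeR's quasi-likelihood test, 0 passed the adjusted p threshold of 0.2, 753 had an unadjusted p under 0.05, and the median log2 fold change of all genes was 0.01. Replicate 3 of the Ethanol group stood apart from replicates 1 and 2 in the genes described here. Their values are therefore given library by library, and each log2 fold change (Ethanol minus Control) is given with and without Ethanol 3.

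Most of the 9 fitted genes were far lower in Ethanol 1 and Ethanol 2 than in any Control library and were near the Control range in Ethanol 3. Ethanol 1 lay below the lowest Control library for 9 of 9 genes and Ethanol 2 for 8 of 9, the exception being Igf2. Ethanol 3 lay below the lowest Control for 4 genes and inside the Control range for 5. As a share of the Control mean, the CPM levels of the 9 genes ran from 0.715% to 45.9% in Ethanol 1, from 0.572% to 102% in Ethanol 2 and from 55.1% to 88.5% in Ethanol 3. For Ttr, Sostdc1, Cldn2, Tmem72, Kl and Folr1, 6 genes in all, both Ethanol 1 and Ethanol 2 were under 15% of the Control mean.

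**Figure D1:**
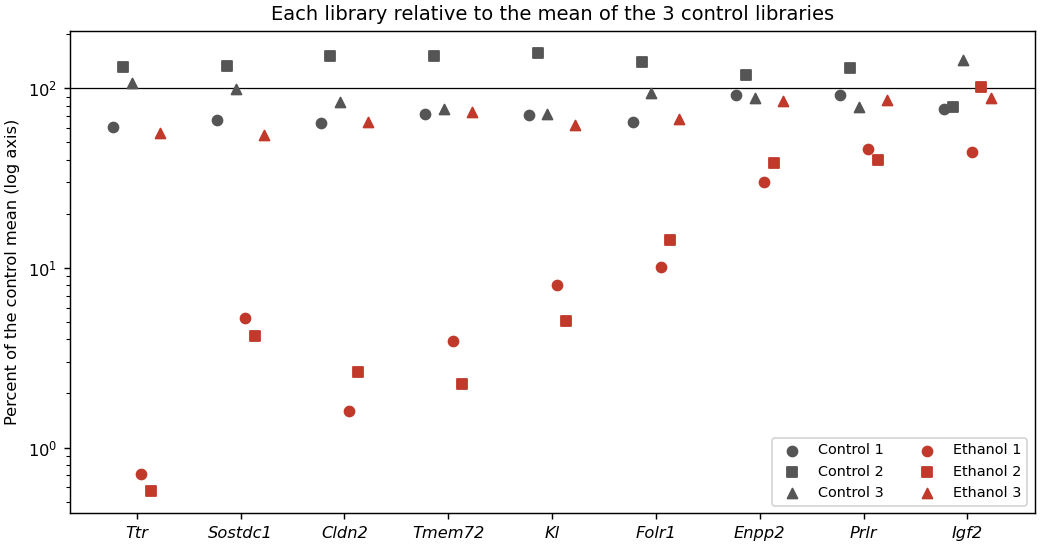
Level of each gene in each library as a percent of the mean of the 3 Control libraries, on a log axis. Grey symbols are Control libraries, red symbols Ethanol libraries, and the shapes give the library number. Ttr stood at 0.715% and 0.572% in Ethanol 1 and 2 and at 56.1% in Ethanol 3, and the gap narrows from Ttr to Igf2.

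All 3 Ethanol libraries were below all 3 Control libraries for 4 of the 9 genes (Ttr, Sostdc1, Enpp2 and Kl), where 5.19% of all genes tested had this order. With all 6 libraries, 0 of the 9 genes passed the adjusted threshold in the quasi-likelihood test, where 0% of all genes were called lower, and 5 of the 9 had an unadjusted p under 0.05, where 2.58% of all genes did in the lower direction. The likelihood ratio test of edgeR also called 0 of the 9 and called 0.287% of all genes lower. DESeq2 called 0 of the 9 and 0.254% of all genes lower, but gave no adjusted p for Tmem72. It gave 3 of the 9 an unadjusted p under 0.05, as it did 646 of the 18141 genes in either direction. Without Ethanol 3, 7 of the 9 were called lower by the quasi-likelihood test (all but Igf2 and Prlr), where 0.311% of all genes were. The genes were chosen on this contrast, and these counts carry no evidence beyond that choice.

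Among the secreted products, Ttr encodes transthyretin, the carrier of thyroxine and of retinol-binding protein and the classic secreted product of the choroid plexus. In the annotation used for counting it spans chr18:15532963-15542180 of Rnor_6.0 on the minus strand, with 758 exonic bases. Its level was 462, 996 and 817 CPM in Control 1, 2 and 3, and 5.42, 4.34 and 425 CPM in Ethanol 1, 2 and 3. Ethanol 1 and 2 were far below every other library, and Ethanol 3 was just under the lowest Control. The Control mean was 140 times the level of Ethanol 1 and 175 times that of Ethanol 2, whose values rest on 348 and 279 reads. The log2 fold change was −2.39 with a standard error (SE) of 1.49, and −7.28 (SE 0.42) without Ethanol 3.

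By level per exonic length, Ttr was the 40th, 9th and 13th highest of all 38445 genes in Control 1, 2 and 3. Its rank was 7913 in Ethanol 1, 8727 in Ethanol 2 and 51 in Ethanol 3. In Ethanol 3 it was thus among the most abundant transcripts of the dissected tissue, as in the Control libraries.

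Sostdc1 encodes a secreted antagonist of bone morphogenetic protein (BMP) and Wnt signalling. The gene lies at chr6:55812820-55816994 on the plus strand. Its level was 7.97, 15.9 and 11.8 CPM in Control 1 to 3 and 0.623, 0.497 and 6.55 CPM in Ethanol 1 to 3. Again the groups did not overlap, with Ethanol 3 close to Control 1 and the other two Ethanol libraries near 5% of the Control mean (5.25% and 4.19%). On the log2 scale the groups differed by −2.20 (SE 0.85), and −4.40 (SE 0.36) without Ethanol 3.

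Kl encodes Klotho, a membrane protein that is shed into blood and cerebrospinal fluid and serves as a co-receptor for FGF23. It lies at chr12:942974-987206 on the plus strand. The Control libraries had 11.04, 24.6 and 11.3 CPM, and the Ethanol libraries 1.26, 0.793 and 9.75 CPM. Control 1, Control 3 and Ethanol 3 were close to each other, Control 2 was the highest library, and Ethanol 1 and 2 were below all of these. Its log2 fold change was −1.98 (SE 0.84), and −3.93 (SE 0.47) without Ethanol 3.

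Enpp2 encodes autotaxin, the secreted enzyme that makes lysophosphatidic acid, and is also a known product of oligodendrocytes. It spans chr7:94479931-94563086 on the minus strand. Its level was 271, 353 and 262 CPM in Control and 89.1, 114 and 250 CPM in Ethanol. The groups did not overlap, but Ethanol 1 and 2 kept 30.2% and 38.5% of the Control mean, a far larger share than for Ttr. On the log2 scale the groups differed by −0.97 (SE 0.35), and −1.54 (SE 0.16) without Ethanol 3.

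Igf2 encodes insulin-like growth factor 2, an imprinted growth factor that the choroid plexus and the leptomeninges release into cerebrospinal fluid. It lies at chr1:215828102-215839081 on the minus strand, and 95 of its exonic bases overlap an unnamed gene on the other strand. The Control libraries had 109, 111 and 204 CPM and the Ethanol libraries 62.8, 144 and 125 CPM. These groups overlapped: Ethanol 1 was the lowest library, but Ethanol 2 was above Control 1 and 2, and Control 3 was the highest. Its log2 fold change was −0.35 (SE 0.34), it was −0.45 (SE 0.40) without Ethanol 3, and it became 0.0072 without Control 3.

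**Figure D2:**
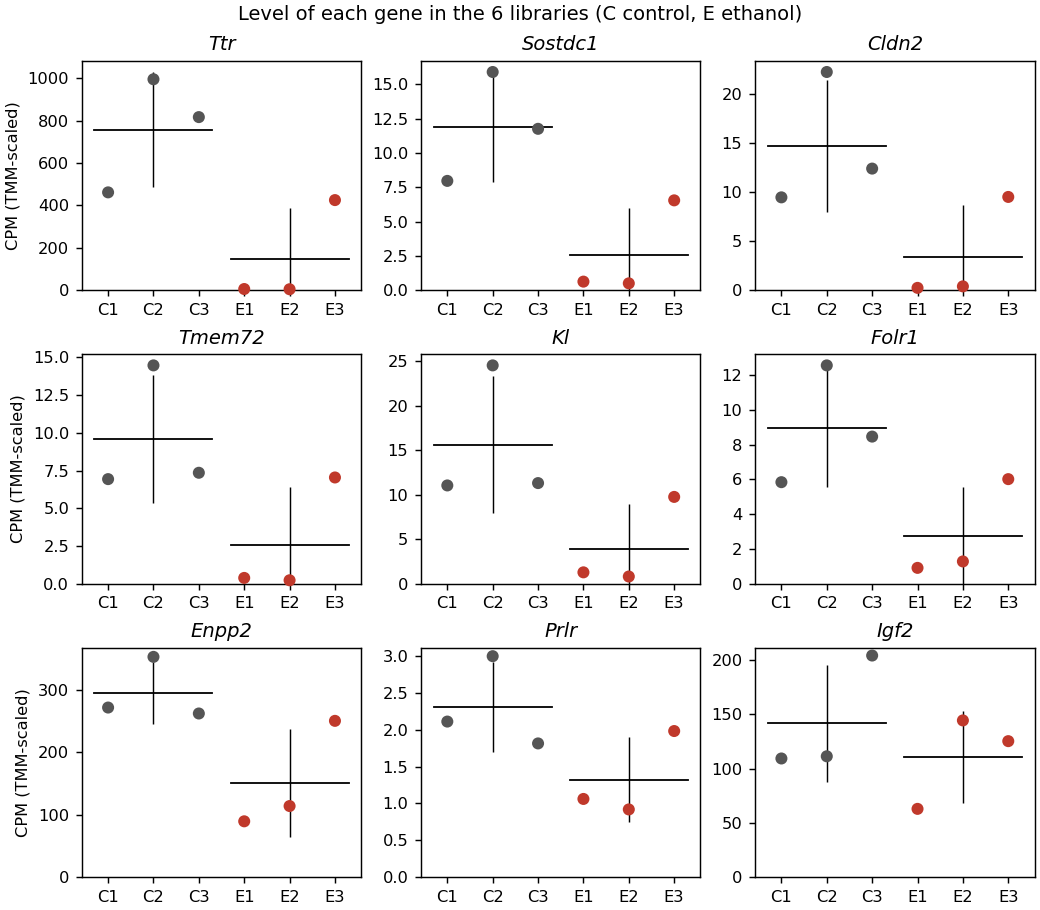
Level of each of the 9 fitted genes in the 3 Control (C1 to C3, grey) and 3 Ethanol (E1 to E3, red) libraries in TMM-scaled CPM, on linear axes from 0. Horizontal lines are group means and vertical lines 1 SD (n = 3), cut off at 0 where they reached below it. E1 and E2 are near 0 for the genes of the 2 upper rows other than Folr1, which had 0.904 and 1.27 CPM there, and E3 is near C1.

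The junction gene Cldn2 encodes claudin-2, a tight junction protein that forms a channel for small cations and water and marks leaky epithelia. It lies at chrX:111122552-111133188 on the plus strand. The Control libraries had 9.45, 22.2 and 12.4 CPM, and the Ethanol libraries 0.234, 0.389 and 9.49 CPM. Ethanol 3 was a little above Control 1, so the groups overlapped, while Ethanol 1 and 2 had 1.59% and 2.65% of the Control mean. The value of Ethanol 1 rests on 15 reads, with an exact Poisson 95% interval of 0.131 to 0.386 CPM that covers counting error only. On the log2 scale the groups differed by −2.11 (SE 1.08), and −5.55 (SE 0.51) without Ethanol 3.

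Tmem72 encodes a transmembrane protein found in kidney and choroid plexus. The gene lies at chr4:148819906-148845199 on the minus strand. Its level was 6.93, 14.5 and 7.35 CPM in Control and 0.374, 0.218 and 7.04 CPM in Ethanol. Ethanol 3 lay between Control 1 and Control 3, and Ethanol 1 and 2 were much lower. Ethanol 2 rests on 14 reads, with a counting interval of 0.119 to 0.365 CPM. The log2 fold change was −1.90 (SE 1.02), and −5.01 (SE 0.48) without Ethanol 3.

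Of the receptors, Folr1 encodes folate receptor alpha, which carries folate across the choroid plexus into the cerebrospinal fluid. It lies at chr1:166934457-166945864 on the minus strand. The Control libraries had 5.84, 12.6 and 8.47 CPM, and the Ethanol libraries 0.904, 1.27 and 6.02 CPM. Ethanol 3 was just above Control 1, and Ethanol 1 and 2 were at 10.1% and 14.2% of the Control mean. On the log2 scale the groups differed by −1.71 (SE 0.65), and −3.04 (SE 0.37) without Ethanol 3.

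Prlr encodes the prolactin receptor, abundant in the choroid plexus but also present in other brain cells. It lies at chr2:60131410-60325686 on the plus strand. Its level was 2.11, 3.00 and 1.81 CPM in Control and 1.06, 0.917 and 1.98 CPM in Ethanol. Ethanol 3 was inside the Control range, and Ethanol 1 and 2 kept 45.9% and 39.7% of the Control mean. Its log2 fold change was −0.80 (SE 0.32), and −1.22 (SE 0.26) without Ethanol 3.

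Otx2, at chr15:25500037-25511619 on the minus strand, had 1 read in Control 2 and 0 reads in each of the other 5 libraries, so its level could not be compared. Taking 3 reads as the limit that a count of 0 allows, for counting error only, the 5 libraries at 0 allow up to 0.0431 to 0.0473 CPM. No annotated gene on its strand overlaps its exons. Col1a2 and Ogn, genes of fibroblasts, were also listed with 0 reads in all 6 libraries, where Col1a1, the partner of Col1a2 in collagen I, had 1183 to 2593. A count of 0 in these files therefore does not show that a transcript was absent.

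The Control libraries themselves differed, and in a shared order. Control 2 was the highest Control for 8 of the 9 genes, all but Igf2, and 6 of them (Ttr, Sostdc1, Kl, Cldn2, Folr1 and Tmem72) had the order Control 2, Control 3, Control 1. The highest Control library had 2.16 times the Ttr level of the lowest, 2.35 times the Cldn2 level and 1.35 times the Enpp2 level. Over all 6 libraries the highest exceeded the lowest 230-fold for Ttr, 95.1-fold for Cldn2 and 66.5-fold for Tmem72, but 3.96-fold for Enpp2, 3.27-fold for Prlr and 3.25-fold for Igf2.

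Per length, as RPKM (CPM over the exonic length in kilobases), the Control means ran in the order Ttr, Enpp2, Igf2, Sostdc1, Folr1, Cldn2, Kl, Tmem72, Prlr and Otx2. Ttr had 1000 ± 359 RPKM (SD, n = 3), Enpp2 107 ± 18.0 and Igf2 25.7 ± 9.86. Between Ttr and Enpp2, Enpp2 and Igf2, Igf2 and Sostdc1, Tmem72 and Prlr, and Prlr and Otx2, the ranges over the 3 Control libraries did not overlap. From Sostdc1 (7.34 ± 2.46 RPKM) through Folr1 (5.75 ± 2.18), Cldn2 (4.74 ± 2.16) and Kl (4.43 ± 2.19) to Tmem72 (2.85 ± 1.26), each gene overlapped the next in this order. Prlr had 0.539 ± 0.144 RPKM.

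In Ethanol 1 and 2 that order was changed. Enpp2 was the highest of the genes with 32.1 and 41.0 RPKM, Igf2 followed with 11.4 and 26.2 RPKM, and Ttr came after both with 7.15 and 5.72 RPKM. Lower in the order, Folr1 (0.580 and 0.818 RPKM) was above Sostdc1 (0.385 and 0.307), and Prlr (0.247 and 0.214) was above Cldn2 (0.0755 and 0.126) and Tmem72 (0.111 and 0.0646). In Ethanol 3, Ttr was again first with 561 RPKM, Enpp2 had 90.2 and Igf2 22.8.

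Set against Ttr in the same library, the level per length of Sostdc1 was 0.809%, 0.749% and 0.675% of that of Ttr in Control 1 to 3, 5.38% and 5.37% in Ethanol 1 and 2, and 0.722% in Ethanol 3. Cldn2 was 0.502%, 0.547% and 0.371% of Ttr in Control, 1.06% and 2.19% in Ethanol 1 and 2, and 0.547% in Ethanol 3. For both genes the ratio in Ethanol 3 was within or just above that of the Control libraries, whereas in Ethanol 1 and 2 the level of Ttr was lower by a larger factor than that of the other genes. The ratio of Enpp2 to Ttr went from 8.76% to 16.1% in the Control libraries to 449% and 716% in Ethanol 1 and 2. Igf2 moved likewise, from 1.54% to 3.44% in Control to 160% and 459%, and was at 4.06% in Ethanol 3.

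**Figure D3:**
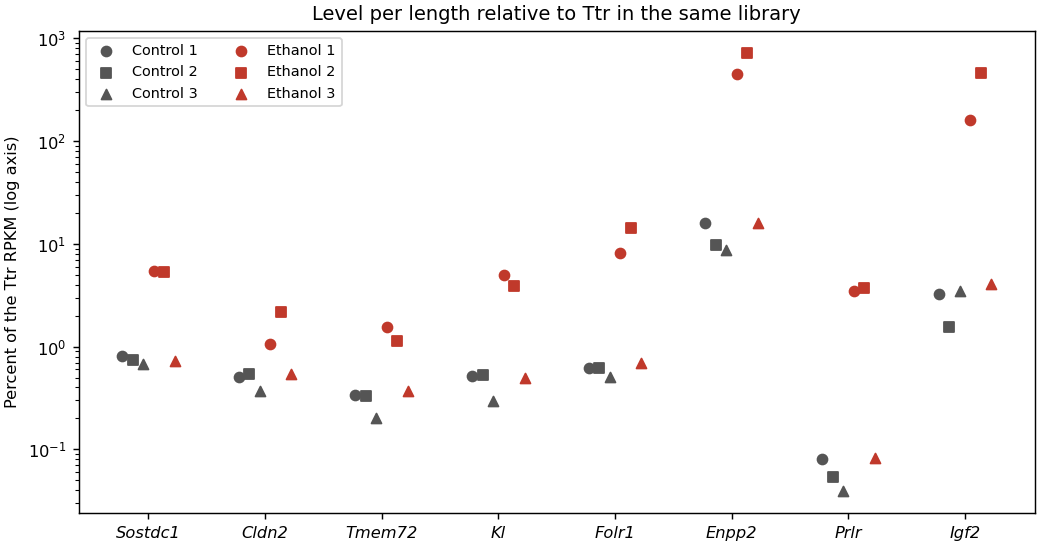
Level per length (RPKM) of each gene as a percent of the Ttr level in the same library, on a log axis. Grey symbols are Control and red symbols Ethanol libraries. For each gene, Ethanol 1 and 2 lie above the Control libraries, with Cldn2 at 1.06% and 2.19% against 0.371% to 0.547%, and Ethanol 3 lies inside or a little above the Control values.

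The genes whose pattern over the 6 libraries was nearest to that of Ttr were looked for among 14171 other genes with a symbol and a mean of at least 1 CPM, the 10 described genes left out. The measure was the root mean square difference of log2 CPM (prior count 2) after each profile was centred on its mean, and the likeness is a description over 6 libraries. The nearest of these were LOC108350049 at a distance of 1.04, Slco1a5, an organic anion transporter gene, at 1.11, and F5, which encodes coagulation factor V, at 1.13. Cltrn, Slc4a5, Prr32, Clic6, Aqp1, Scgb1c1 and Mfrp followed, up to 1.94. The same 10 of the 14171 genes were nearest to Cldn2, where F5 was at 0.24, LOC108350049 at 0.42 and Slco1a5 at 0.46. The prior count raises low values, so a low gene cannot follow Ttr over its whole range.

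F5 had 10.6, 30.9 and 14.5 CPM in Control and 0.405, 0.684 and 11.1 CPM in Ethanol, the same order of all 3 Control libraries as Cldn2. Aqp1, the water channel of the apical membrane of the choroid plexus, had 5.34, 12.4 and 7.43 CPM in Control and 0.467, 0.824 and 6.15 CPM in Ethanol. Slc4a5, a sodium bicarbonate cotransporter gene of the same cells, had 9.21, 22.6 and 9.48 CPM, then 0.530, 1.03 and 10.3 CPM. Of the genes described here, Cldn2 (0.90) and Tmem72 (1.11) were nearest to Ttr on the same measure, nearer than most of the genes listed above. Tmem72 (0.47) and Sostdc1 (0.63) were nearest to Cldn2, and Prlr (1.97) and Igf2 (2.31) were farthest.

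Igf2 (3.14), Prlr (2.80) and Enpp2 (2.64) were the described genes farthest from Ttr. Nearest genes were looked up for Igf2 and Enpp2 but not for Prlr, after their values were seen. Nearest to Igf2 were Slc13a4 (0.14), a sulfate transporter gene, Thbs2 (0.15), which encodes the matrix protein thrombospondin 2, and Cdkn1c (0.16), an imprinted cell cycle inhibitor gene. Slc13a4, which is in the list of choroid plexus transporter and channel genes read below, had 26.1, 32.2 and 62.4 CPM in Control and 18.5, 40.9 and 30.7 CPM in Ethanol. Like Igf2, it was highest in Control 3 and lowest in Ethanol 1. Nearest to Enpp2 were Trpv4 (0.18), a cation channel gene, Cdh3 (0.20), which encodes P-cadherin, and Itpripl1 (0.21), with the potassium channel subunit gene Kcne2 the last of the 10 listed (0.26). Trpv4 and Kcne2 are also in the transporter and channel list, and Cdh3 is in that of other choroid plexus epithelium genes.

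The markers of other cells that make Igf2 or Enpp2 were read beside them. The 12 leptomeningeal and vascular fibroblast markers, 2 of which (Col1a2 and Ogn) were at 0, summed to 96.7, 87.9 and 180 CPM in Control and 81.7, 140 and 95.9 CPM in Ethanol. In this sum Control 3 was highest and Ethanol 2 next, as for Igf2, and Ethanol 1 was lowest. The lowest library depended on the weight of each gene. The median over the fitted markers, as a percent of the Control mean, was lowest in Control 2 (69.4%), with Ethanol 1 at 74.3%. Of the 10 fitted, 9 had a log2 fold change below 0, with a median of −0.16; Dcn, a proteoglycan gene, was at −0.69 (SE 0.23) and Col1a1 at −0.07 (SE 0.35). Their part in the Igf2 values was not tested.

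The 10 oligodendrocyte markers summed to 8989, 3862 and 6297 CPM in Control and 4714, 6522 and 10357 CPM in Ethanol. Control 2, the highest library for Enpp2, was the lowest for these markers. Of the 10, 9 had a log2 fold change above 0 (median 0.16), and without Ethanol 3 the median was −0.14. The myelin gene Mbp, among the highest in level in the list, was at 0.24 (SE 0.43). The part of these 10 markers in the Enpp2 values was not tested.

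**Figure D4:**
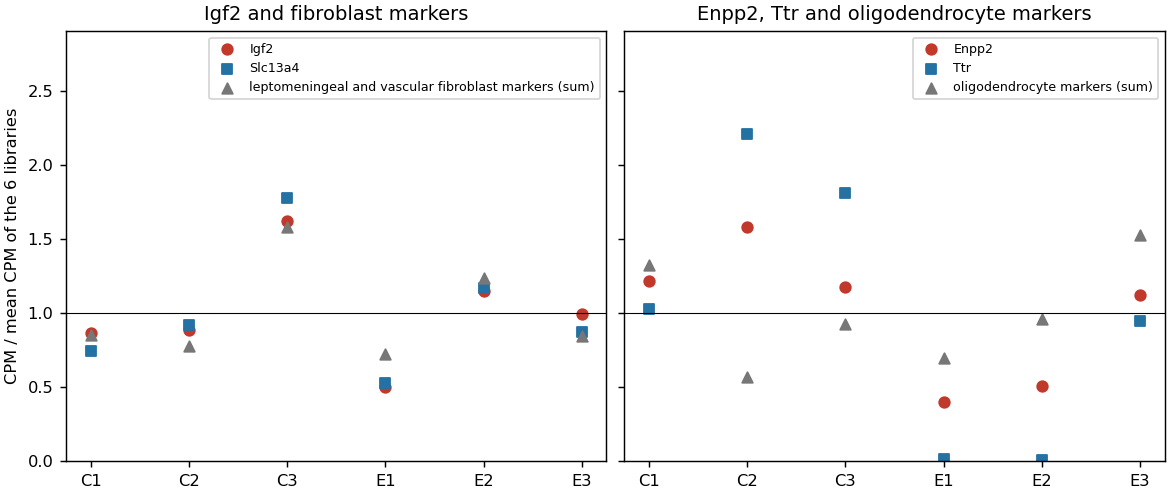
Igf2 with Slc13a4 and the summed fibroblast markers (left), and Enpp2 with Ttr and the summed oligodendrocyte markers (right), each as a multiple of its mean CPM over the 6 libraries. Slc13a4 is in the choroid plexus transporter list and is not one of the fibroblast markers. Igf2 (0.498 in E1 to 1.62 in C3) and the fibroblast sum (0.719 in E1 to 1.58 in C3) share their highest and lowest libraries. With each fitted fibroblast marker weighted equally, the lowest library was C2 instead. Enpp2 is highest in C2 (1.58), where the oligodendrocyte sum is lowest (0.569).

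For other genes of the choroid plexus epithelium, most log2 fold changes were also below 0, with medians nearer to 0 and single genes such as F5 (−2.18, and −5.09 without Ethanol 3) as far below as most of those described. Of 15 transporter and channel genes, 13 had a log2 fold change below 0 and 2 did not overlap between the groups, with a median of −0.91 and of −1.16 without Ethanol 3. The quasi-likelihood test without Ethanol 3 called 7 of the 15 lower, as it did 7 of the 9 described genes and 0.311% of all genes. The 2 with the highest level, Atp1b1 (0.05, SE 0.12), a subunit of the sodium pump, and Car12 (−0.36, SE 0.23), a carbonic anhydrase, are also made by other brain cells. Of 20 other epithelial genes, 19 were below 0 and 7 did not overlap, with a median of −0.66, and of −0.79 without Ethanol 3. That test without Ethanol 3 called 5 of the 20 lower. In this list the highest levels were those of Htr2c (−0.24, SE 0.10), the serotonin 2C receptor gene, and Spint2 (−0.20, SE 0.09), a protease inhibitor gene. For all 18141 genes tested, 8602 were below 0 and 9539 above, and 5.19% had all Ethanol libraries below all Control libraries.

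Ependymal cells, which line the ventricles beside the choroid plexus, were represented by 12 markers, of which 10 were fitted. Their summed level was 76.8 to 97.6 CPM in Control and 67.2 to 70.8 CPM in Ethanol, and the groups did not overlap. The log2 fold change was below 0 for 9 of the 10, 6 did not overlap against the same 5.19% of all genes, and the median was −0.60 with and −0.62 without Ethanol 3. Foxj1, the regulator of motile cilia, had −0.48 (SE 0.20), and Rarres2 had 0.09 (SE 0.14). In this sum Ethanol 3 was like Ethanol 1 and 2, unlike its values for Ttr. Foxj1 differed from the sum, with 8.70, 9.16 and 13.9 CPM in Ethanol 1 to 3, the last inside its Control range (11.9 to 17.1). The part of ependymal cells in the results for the choroid plexus genes was not tested. The 10 endothelial and mural cell markers had a median of 0.00, with Flt1 (−0.09, SE 0.08) and Slco1a4 (−0.08, SE 0.09) the highest in level. The 12 neuronal markers had a median of 0.03, with Snap25 at 0.12 (SE 0.12) and the glutamate transporter gene Slc17a7 at 0.18 (SE 0.29).

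**Figure D5:**
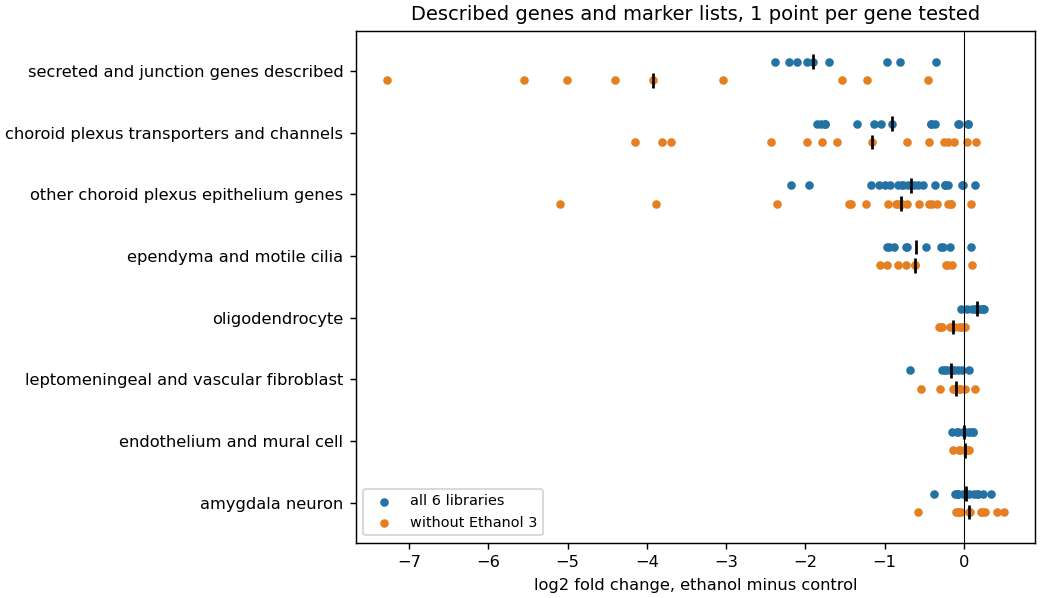
Log2 fold change (Ethanol minus Control) of each gene tested in the 9 described genes and in 7 marker lists, with all 6 libraries (blue) and without Ethanol 3 (orange). Black ticks are medians, which were −1.90 and −3.93 for the 9 genes, −0.91 and −1.16 for the transporters and −0.60 and −0.62 for the ependymal list, where leaving out Ethanol 3 changed little.

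The pathways in which these proteins act had medians near that of all genes. In thyroxine and retinol carriage, where Ttr acts, 6 of 9 genes were below 0 (median −0.01), with the thyroid hormone receptor gene Thra at 0.00 (SE 0.10) and the thyroxine transporter gene Slco1c1 at −0.20 (SE 0.07). Slco1c1 had 100 to 108 CPM in Control and 85.6 to 98.6 CPM in Ethanol, without overlap, an order that 5.19% of all genes tested had. Whether its gap, or those of Lrp6 and Grem1 below, exceeded counting error was not tested. For BMP and Wnt antagonism, where Sostdc1 acts, 5 of 9 fitted genes were below 0 (median −0.02), with the LDL receptor-related genes Lrp4 (−0.04, SE 0.08) and Lrp6 (−0.09, SE 0.06), the latter a Wnt co-receptor, highest in level. Lrp6 was lower without overlap, with 33.2 to 36.1 CPM in Control and 31.8 to 32.8 CPM in Ethanol. Grem1 (0.40, SE 0.14) was higher without overlap, with 7.79 to 9.18 and 9.48 to 13.4 CPM. Of all 18141 genes tested, 942 had the first order and 663 the second. In the insulin-like growth factor system, 5 of 9 were below 0 (median −0.02), and the receptor genes Igf1r (0.03, SE 0.11) and Igf2r (−0.02, SE 0.11) differed by less than their standard errors; no gene of the list was without overlap.

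Among the genes of lysophosphatidic acid signalling downstream of Enpp2, 5 of 11 were below 0 (median 0.00). The receptor gene Lpar1 (0.09, SE 0.28) and the lipid phosphatase gene Plpp3 (−0.03, SE 0.09) were the highest in level, and the groups overlapped for all 11. Of the Klotho and FGF receptor genes, 4 of 7 fitted were below 0 (median −0.07), with Fgfr1 at −0.09 (SE 0.08) and Fgfr3 at 0.03 (SE 0.10). Fgf21, a hormone gene of this list, had 0.394 to 0.410 CPM in Control and 0.233 to 0.373 CPM in Ethanol, without overlap, at −0.36 (SE 0.25). The gap between 0.394 and 0.373 CPM was under the 0.0422 to 0.0473 CPM that 3 counts make, so it was within counting error. Lctl of the same list did not overlap either, but was at 0.0631 CPM or less and was not fitted.

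In prolactin signalling, 4 of 9 fitted genes were below 0 (median 0.02). The kinase gene Jak2 was at −0.02 (SE 0.06). Stat3, the transcription factor gene, had 65.1 to 73.2 CPM in Control and 74.9 to 77.5 CPM in Ethanol, and Socs2, a feedback inhibitor gene, 7.69 to 7.839 and 7.843 to 9.33 CPM. Both were higher in every Ethanol library, by 0.12 (SE 0.06 and 0.10) on the log2 scale. Of all 18141 genes tested, 663 had this order. For Socs2 the gap between 7.839 and 7.843 CPM was under the CPM of 3 counts, so it was within counting error. Whether the Stat3 gap between 73.2 and 74.9 CPM exceeded counting error was not tested. In folate uptake and use, 7 of 10 were below 0 (median −0.04), and the highest in level were the enzyme genes Mthfd1 (−0.01, SE 0.08) and Shmt2 (−0.04, SE 0.07).

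The fitted claudins other than Cldn2 did not share its values. Of 9 fitted of 12, 4 were below 0 (median 0.03), with Cldn12 at 0.13 (SE 0.08) and Cldn10 at 0.03 (SE 0.09). Cldn4 was higher without overlap, with 0.205 to 0.260 CPM in Control and 0.265 to 0.404 CPM in Ethanol (0.54, SE 0.27). The gap between 0.260 and 0.265 CPM was far under the 0.0422 to 0.0473 CPM that 3 counts make, so it was within counting error. Of all 18141 genes tested, 663 were higher without overlap. Cldn22, too low to be fitted, went in the direction of Cldn2 at few reads, with 0.0459, 0.127 and 0.110 CPM in Control. It was at 0 in Ethanol 1 and 2 and had 0.0144 CPM in Ethanol 3. For the other tight junction partners, 8 of 10 were below 0 (median −0.07), with the scaffold gene Tjp1 at −0.04 (SE 0.06) and Jam2 at 0.02 (SE 0.09). Of the OTX and patterning factors, 8 of 8 fitted were below 0 (median −0.11), with Pax6 at −0.08 (SE 0.17) and Rfx3 at −0.02 (SE 0.14), and all 8 overlapped between the groups. The farthest from 0 was Gdf7 at −0.80 (SE 0.38), and at −1.25 (SE 0.36) without Ethanol 3. Its level was low, with 0.444, 0.803 and 0.473 CPM in Control and 0.249, 0.233 and 0.503 CPM in Ethanol.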

How the data were processed

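The deposited files hold whole-number counts per gene, which the authors made from single-end reads of a stranded mRNA library (TruSeq, HiSeq2500). The submitters' processing notes name FastQC 0.11.8, STAR 2.7.0f, featureCounts (Subread 1.6.3) and the build Rnor_6.0, and the file headers give the reverse-stranded setting. Exonic length per gene, the other deposited column used, gave RPKM. Gene symbols came from a RefSeq table that matched 29322 of 38445 identifiers, and promoter windows from RefSeq on GRCr8; coordinates were not converted between builds.

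Counts were analysed in R 4.3.3 with edgeR 4.0.16: filterByExpr (minimum 10 counts, 15 in total), TMM scaling, the quasi-likelihood F test with group as the only term, and Benjamini-Hochberg adjustment over all genes, at the study's threshold of 0.2. The standard error is the log2 fold change over the square root of F. Alternatives were DESeq2 1.42.0, the edgeR likelihood ratio test, other scalings, no filter, a replicate block and leaving out each library. The fit was tested on simulated data. As nothing says how pools were assigned, p-values measure the spread between these libraries.

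The genes described and all lists were chosen with earlier results of these data known. Named are those genes, the 2 genes of highest mean CPM in each list, list genes of the claudin, folate, lysophosphatidic acid, insulin-like growth factor, Klotho and prolactin lists whose groups did not overlap, and the 10 nearest patterns to Ttr and Cldn2; 1 gene that this rule names is not reported here. F5, Aqp1, Slc4a5 and the genes nearest to Igf2 and Enpp2 were given values after these were seen, as were Slco1c1, Col1a1, Col1a2 and Ogn. The same holds for Neurod6, Ppp1r1b, Slc32a1, Grem1 and Gdf7.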

Additional observations from a re-analysis of the deposited data

How the results depend on the processing

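With all 6 libraries the quasi-likelihood test called 0 of 18141 genes. The edgeR likelihood ratio test called 77 and DESeq2 called 75, while DESeq2 size factors in edgeR, library size alone and no filter on low counts each gave 0. Leaving out each library in turn gave 0 to 83 called genes, with 83 without Ethanol 3, 4 without Ethanol 1 and 0 without any other library. The number of described genes called was 0 to 7 over these omissions, 7 without Ethanol 3 and 0 otherwise. The fit with a replicate block called 0 of 18141 genes and 0 of the described genes. In it 1015 genes had an unadjusted p under 0.05, among them 8 of the 9 described. Its log2 fold change for Ttr was −5.38 (SE 1.62). Deviations of same-numbered libraries correlated at 0.02, 0.41 and 0.22 over 14241 genes. Differently numbered libraries were not compared, so these values do not decide on pairing. Of 108 alternative log2 fold changes of the described genes, 100 kept their direction and side of the threshold. DESeq2 gave no adjusted p for Tmem72, which was counted among these 100. Another 7 passed the threshold without Ethanol 3, and 1 changed sign. The change of sign was that of Igf2, which lay between −0.59 and 0.0072 when 1 library was left out, the latter without Control 3. Its cause was not tested. The log2 fold change of Ttr ran from −7.28 to −1.82 over all alternatives and that of Cldn2 from −5.55 to −1.56. List medians without Ethanol 3 and the genes nearest to Igf2 and Enpp2 were chosen after seeing the data. Low read numbers limit the precision of Cldn2 and Tmem72 in Ethanol 1 and 2; why Otx2 had 1 read in all was not tested.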
